A study of Mus musculus with 6 samples.

Results

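Chemosensory receptor genes encode the odorant, vomeronasal and taste receptors, and the regions assigned to them were described across 4 peak tables made from CUT&Tag libraries of primary mouse cardiac fibroblasts. A region belonged to the group when the symbol of its assigned gene began with Olfr or Or and a number (odorant receptors), Vmn1r or Vmn2r (vomeronasal receptors) or Tas1r or Tas2r (taste receptors). Summed over the tables, 1934 of 456310 regions met this rule, and they were assigned to 817 genes. By table they were 646 of 170890 regions in the T set for TGF-b against NC, 752 of 180118 in the T set for TGF-b+siRNA against TGF-b, 280 of 52723 in the S set for TGF-b against NC and 256 of 52579 in the S set for TGF-b+siRNA against TGF-b. The rule used names only and no measured value.

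CUT&Tag cuts DNA with a transposase that an antibody holds at its target on chromatin, so the reads mark where that target sits. The 6 libraries formed 2 sets of 3, each holding 1 library of NC (the control's label), 1 of TGF-b and 1 of TGF-b together with an siRNA. The cytokine TGF-b is known to activate fibroblasts. The siRNA is labelled SiTAZ in the T set and SiSRF in the S set, but the text of the study names Piezo2 as the silenced gene, and the series' design text speaks of a Cre-driven Tet3 deletion that no sample label carries. No label gives the antibody. The study profiled TAZ and SRF, and taking T for TAZ and S for SRF here rests on the letters and the siRNA names in the labels. Strain, age and number of animals are not in the labels. With 1 library per treatment a treatment cannot be tested, and the intervals below cover only counting of reads, or for shares and medians the number of regions or genes, with no spread between samples.

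Odorant, vomeronasal and taste receptors are membrane receptors coupled to G proteins. They lie in large tandem clusters of similar genes. A mature olfactory sensory neuron uses very few of its odorant receptor alleles and keeps the rest in compact heterochromatin, and most other cell types are not known to use these genes, although a few members such as Or51e2 (Olfr78) and Or51e1 (Olfr558) are known from blood vessel or other non-sensory cells. Transcripts were not measured in these libraries, so silence of the receptor genes in these fibroblasts was not checked. Clusters of near-identical copies also make short reads hard to place, and how reads with several matches were treated is not given in the sources used here.

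To show what stretch of DNA such regions cover, promoter sequences were taken from RefSeq (build GRCm38.p6, 250 bases before to 50 bases after the start). The tables themselves use GRCm39 coordinates, so the 2 sets of positions are not on the same scale. Over the 4 tables, 142 receptor genes had a region that overlapped this window around the start of their assigned transcript, and 129 of them were matched to a RefSeq promoter. The sequences below belong, for each set, to the genes with the highest mean density among such regions and to the gene with the fewest reads, where the RefSeq start lay within 10 bases of the start of the transcript assigned in the tables. Vmn1r71 (chr7:10749489-10749788, minus strand), Or1r1 (chr11:73984557-73984856, minus) and Tas1r2 (chr4:139653288-139653587, plus) came from the T set. Or51a5 (chr7:103122733-103123032, minus), Or4k2 (chr14:50187169-50187468, minus) and Or4a80 (chr2:89752777-89753076, minus) came from the S set. Capitals mark a match, on either strand, to GGAATG (the M-CAT core that TEAD factors, the DNA-binding partners of TAZ, are known to bind), to the CArG box of SRF, to CCCNNGGG (an O/E-like core) or to TAATTA (a homeodomain core).
Vmn1r71: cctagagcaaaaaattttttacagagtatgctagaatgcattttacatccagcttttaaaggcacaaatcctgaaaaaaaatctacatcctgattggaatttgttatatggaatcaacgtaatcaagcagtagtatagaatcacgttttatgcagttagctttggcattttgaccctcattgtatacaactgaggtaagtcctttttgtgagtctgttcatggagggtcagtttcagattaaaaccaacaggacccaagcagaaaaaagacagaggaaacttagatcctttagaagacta
Or1r1: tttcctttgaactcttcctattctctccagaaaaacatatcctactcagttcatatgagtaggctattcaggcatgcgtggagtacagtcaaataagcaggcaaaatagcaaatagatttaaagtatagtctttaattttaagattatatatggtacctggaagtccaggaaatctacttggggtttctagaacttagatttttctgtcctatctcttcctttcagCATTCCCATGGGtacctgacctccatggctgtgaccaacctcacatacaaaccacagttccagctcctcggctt
Tas1r2: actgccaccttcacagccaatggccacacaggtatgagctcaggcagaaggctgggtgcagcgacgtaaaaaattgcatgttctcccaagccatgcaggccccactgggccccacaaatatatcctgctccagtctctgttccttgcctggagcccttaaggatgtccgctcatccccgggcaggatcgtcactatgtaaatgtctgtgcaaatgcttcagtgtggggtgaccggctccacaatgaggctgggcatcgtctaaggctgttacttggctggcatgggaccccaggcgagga
Or51a5: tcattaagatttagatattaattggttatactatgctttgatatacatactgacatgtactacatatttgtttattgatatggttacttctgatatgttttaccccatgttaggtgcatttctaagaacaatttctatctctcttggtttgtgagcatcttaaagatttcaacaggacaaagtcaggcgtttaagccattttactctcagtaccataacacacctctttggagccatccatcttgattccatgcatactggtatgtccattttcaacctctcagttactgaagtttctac
Or4k2: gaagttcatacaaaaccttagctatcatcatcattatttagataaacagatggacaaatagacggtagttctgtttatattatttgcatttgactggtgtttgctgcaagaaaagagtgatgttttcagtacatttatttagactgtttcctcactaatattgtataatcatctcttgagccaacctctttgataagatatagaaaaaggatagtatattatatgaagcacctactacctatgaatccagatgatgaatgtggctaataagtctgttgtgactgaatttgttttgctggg
Or4a80: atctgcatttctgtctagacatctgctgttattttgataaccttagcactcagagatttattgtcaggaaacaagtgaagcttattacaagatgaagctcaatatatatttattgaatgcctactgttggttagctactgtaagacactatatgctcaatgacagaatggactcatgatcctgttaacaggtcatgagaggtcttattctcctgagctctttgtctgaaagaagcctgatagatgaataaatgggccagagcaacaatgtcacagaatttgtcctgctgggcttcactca

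Of these 6 promoters, Or1r1 alone held a match. Its M-CAT match is on the opposite strand to the printed one and shares bases with its O/E-like match. The region at Or1r1 (chr11:73875376-73875454 in GRCm39) reached from 22 bases before to 56 after the start and had 5 reads under TGF-b and 20 under TGF-b+siRNA in the T set. The region at Or4k2 (chr14:50424549-50424712) had 3, 18 and 5 reads in the NC, TGF-b and TGF-b+siRNA libraries of the S set. The region at Tas1r2 (chr4:139380792-139380864) had 0 and 3 reads in the TGF-b and TGF-b+siRNA libraries of the T set, so regions over these promoters ran from no reads up to 23, the value of Vmn1r71 in TGF-b+siRNA, where TGF-b had 3. Across all promoters, GGAATG was found in 14.7% of 32851, in 14.3% of the 1304 receptor promoters and in 17.1% of the 129 with a region over them. The CArG box was found in 1.63% of all promoters, 1.46% of receptor promoters and 0 of the 129. CCCNNGGG was found in 13.7% of all promoters, 4.06% of receptor promoters and 2.33% of the 129. TAATTA was found in 5.29%, 16.6% and 17.1%. The median GC content was 52.7% for all promoters, 35.8% for receptor promoters and 36.7% for the 129, so receptor promoters were the more AT-rich ones whether or not a region lay over them.

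Receptor regions were few. They made up 0.378% (95% Wilson interval 0.35% to 0.408%) and 0.418% (0.389% to 0.448%) of the regions in the T set tables, and 0.531% (0.473% to 0.597%) and 0.487% (0.431% to 0.55%) of those in the S set tables, in the order TGF-b against NC and TGF-b+siRNA against TGF-b. All 817 gene identifiers of the members were found in the GENCODE M21 annotation. That annotation lists 1502 protein-coding receptor genes under these names, of which 30.4% (28.2% to 32.8%) and 34.8% (32.4% to 37.2%) had a region in the T set tables and 16.0% (14.2% to 17.9%) and 14.4% (12.8% to 16.3%) in the S set tables. The other 20449 protein-coding genes had a region in 74.2%, 74.95%, 44.1% and 48.2% of cases. Receptor genes are shorter, with a median length of 6271 bp against 19366 bp. Among genes longer than 2000 and up to 10000 bp the shares were 33.3% (30.5% to 36.3%) of receptor genes against 56.9% (55.5% to 58.2%) of others in the T set for TGF-b against NC, and 14% (11.98% to 16.3%) against 28.5% (27.3% to 29.8%) in the S set for TGF-b+siRNA against TGF-b. What part gene length has in these shares was not tested beyond such bins. Over the 4 tables together, 54.2% (51.7% to 56.7%) of receptor genes had at least 1 region, against 83.8% (83.3% to 84.3%) of the others.

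Odorant receptors carried most of the members, and of the 3 large families theirs was the one with the highest share of genes with a region. Their regions numbered 526, 605, 230 and 206 in the 4 tables, from 80.5% to 82.1% of the members. Over the 4 tables a region was assigned to 59.4% (56.5% to 62.2%) of 1135 odorant receptor genes, 40.0% (31.7% to 48.9%) of 120 V2R genes and 34.4% (28.3% to 41.1%) of 209 V1R genes. V1R and V2R receptors are expressed by vomeronasal neurons and are known for detecting pheromones. Among the taste receptors, a region was assigned to 17 of 35 bitter receptor genes (T2R) and to all 3 genes of the T1R family, whose products form the sweet and umami receptors. The median mean density of the T1R regions was 6.35 and 6.02 in the T set tables against 3.21 and 2.84 for odorant receptors, from only 9 and 11 regions of 2 and 3 genes. Both times 7 of the T1R regions were assigned to Tas1r2, at distances of up to 89401 and 86497 bp from its start, and 3 of the 7 in the first table were annotated to another host gene. Not counted among these 3, regions annotated 3′ UTR lay 15158 and 9311 bp upstream of the Tas1r2 start, so outside that gene.

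The members were spread over 18 chromosomes in each table, with the most on chromosome 7, which holds large odorant and vomeronasal receptor clusters. Chromosome 7 held 172 of the 646, 201 of the 752, 76 of the 280 and 57 of the 256 members. Chromosome 2 followed with 96, 135, 36 and 42. In 377, 435, 147 and 117 cases the next genes with a region on both sides were receptor genes too, which is 58.4%, 57.8%, 52.5% and 45.7% of the members. Most receptor genes had a single region: 70.4% and 70.2% of the genes in the T set tables and 85.8% and 84.4% in the S set tables. The regions were short, with a median width of 87.5 and 80 bp in the T set and 144 and 148 bp in the S set, close to the 96, 85, 148 and 150 bp of all regions.

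Compared with regions of other genes, receptor regions lay nearer to a start site and less often in introns. The median distance to the assigned start was 1435 and 1434 bp in the T set and 1548 and 1534 bp in the S set, against 11338, 12203, 12278 and 9871 bp for other genes. The share classed as promoter was 33.1% (29.6% to 36.9%), 30.2% (27.0% to 33.6%), 27.9% (22.9% to 33.4%) and 28.5% (23.3% to 34.3%), against 12.7%, 12.1%, 13.8% and 17.9% of regions of other genes. The share in introns was 27.9%, 31.1%, 29.6% and 27.7%, against 74.9%, 75.5%, 72.7% and 68.0%. Members were also more often annotated to a 3′ UTR, with 16.9%, 16.6%, 18.6% and 17.6%, against 2.59%, 2.59%, 2.32% and 2.15%. The share classed as downstream was 9.75%, 9.18%, 12.9% and 12.5%, against 2.07%, 2.11%, 2.05% and 2.03%. Receptor genes are short and densely packed, and these distances and shares were not matched for gene length. In the T set for TGF-b against NC, promoter-class receptor regions had a median mean density of 3.11 and intronic ones 3.21, while promoter-class regions of other genes had 7.80 and their intronic regions 4.005. In the S set for TGF-b+siRNA against TGF-b the same values were 4.18 and 4.38 for receptor regions, and 8.45 and 4.72 for other genes. Receptor regions within 1 kb of their start had a median mean density of 3.15, 3.18, 5.11 and 4.76 in the 4 tables, against 3.21, 2.84, 4.70 and 4.39 for all receptor regions, so they were the lower ones in the first table and the higher ones in the other 3.

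The assigned gene was not always the gene a region sat in. By its centre, a member lay inside the assigned transcript in 35.3%, 37.8%, 36.4% and 35.9% of cases, upstream of it in 38.7%, 35.9%, 36.1% and 36.3%, and downstream in the rest. The annotation named a host gene for 234, 308, 109 and 96 members, and for 36, 45, 16 and 12 of them the host was another gene. Or2p2, an odorant receptor gene on chromosome 13, had the most regions or shared the most, with 7, 12, 5 and 4 in the 4 tables, and 7, 11, 5 and 4 of these were annotated to a different host gene. Their distances from the Or2p2 start ran up to 133479 bp. Vmn2r120, the V2R gene with the most regions in the T set, likewise had 5 of 6 and 4 of 8 regions in another host. Among V1R genes Vmn1r68 stood out in the T set for TGF-b+siRNA against TGF-b with 6 regions of 0 to 8 reads, and in the other tables no V1R gene had more than 2. Tas2r134, a bitter receptor gene, had 3 and 2 regions in the T set tables, of which 3 and 1 were in another host, and those of the first table lay 45143 to 51761 bp from its start. Vmn2r1 had 4 in the S set for TGF-b+siRNA against TGF-b. Of the 817 genes, 376 had a region in 1 table and 41 in all 4.

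Reads behind the members were sparse. The deposited density is 0.5 per read in a window of 2 kb, after adding 1 read, and the authors' rescaling could be undone to give reads: all 646, 752, 280 and 256 members came out as whole reads within 0.1. In the T set the median member had 7 reads in NC and 4 in TGF-b for the first table, and 3 in TGF-b and 5 in TGF-b+siRNA for the second. In the S set the medians were 7 in NC and 10 in TGF-b, and 9 in TGF-b and 6 in TGF-b+siRNA. Regions of other genes had medians of 10 and 6, 5 and 7, 8 and 10, and 11 and 9 in the same order. The receptor median was thus at or under that of other genes in each of these libraries, by 0 to 3 reads. The 95th percentiles lay further apart, at 22 reads against 36 in NC of the T set and 14 against 32 in its TGF-b library. For the S set they were 15.1 against 18 in NC and 19.1 against 29 in TGF-b.

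**Figure D1:**
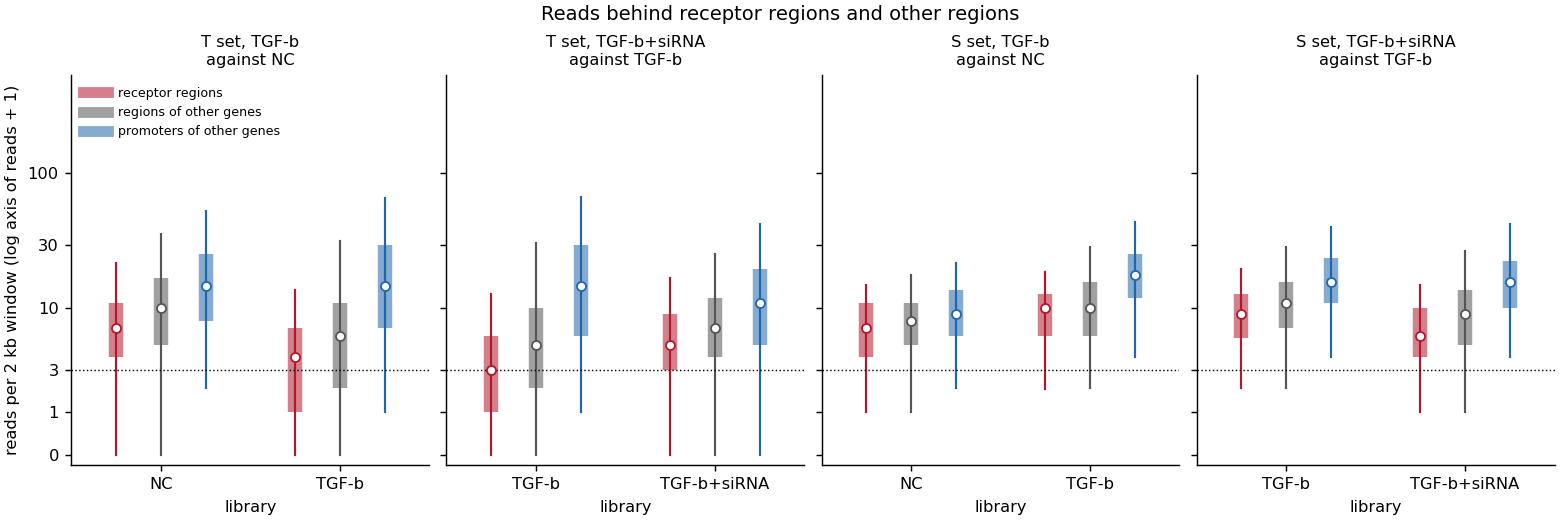
Reads per 2 kb window (vertical log axis of reads plus 1) in each library of the 4 tables for receptor regions, regions of other genes and promoters of other genes within 1 kb of a start; circles are medians, boxes the middle of the distribution from the 25th to the 75th percentile, and lines the 5th to the 95th percentile over regions. Receptor medians run from 3 to 10 reads, and the dotted line marks the floor of 3 reads.

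A floor of 3 reads or fewer was used to mark regions whose fold is set by near-absent reads. In the T set, 61.6% (57.8% to 65.3%) and 70.7% (67.4% to 73.9%) of members were at the floor in at least 1 library of the comparison, against 49.3% and 57.9% of all regions. For the S set it was 28.9% (23.9% to 34.5%) and 38.7% (32.9% to 44.8%), against 27.5% and 26.8%. In the first T set table the TGF-b library was the emptier: 297 of 646 members, 46.0% (42.2% to 49.8%), had 3 reads or fewer there, and 121 had none. In the S set's TGF-b library these were 32 of 280 members, 11.4% (8.21% to 15.7%), at the floor in the first S set table and 14.8% in the second. Of all regions, 36.2% were at the floor in TGF-b of the first T set table and 11.05% and 9.76% in TGF-b of the 2 S set tables. The background lay under the members' interval in the first T set table and in the second S set table (11.01% to 19.7%), and inside it in the first S set table. V2R regions were at the floor in 79.1% and 79.3% of cases in the T set tables, and the T1R regions in 11.1% and 27.3%. The total depth of the libraries was not analysed here, so its part in these differences between sets was not tested.

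Mean density, the average of the 2 rescaled values of a comparison, placed the receptor regions below regions of other genes, regions with no gene assigned and promoters of other genes. Their median was 3.21, 2.84, 4.70 and 4.39, against 3.99, 3.49, 4.90 and 4.97 for all regions and 8.27, 7.005, 6.96 and 8.55 for promoters of other genes within 1 kb of a start. The upper ends separated further: the 95th percentile of receptor regions was 7.84, 6.93, 8.65 and 8.22. That level was exceeded by 52.7% (51.9% to 53.4%), 50.5% (49.7% to 51.2%), 32.5% (31.2% to 33.8%) and 53.8% (52.6% to 55.0%) of promoters of other genes. It was exceeded by 10.6%, 9.86%, 7.35% and 9.15% of regions with no gene assigned, so these too reached higher than receptor regions. Receptor regions within 1 kb of their own start exceeded it in 4.74%, 5.04%, 6.19% and 6.93% of cases. The highest receptor region had a mean density of 19, 12.9, 16.0 and 17.9, and 2.48%, 3.73%, 1.17% and 1.67% of all regions lay above it.

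**Figure D2:**
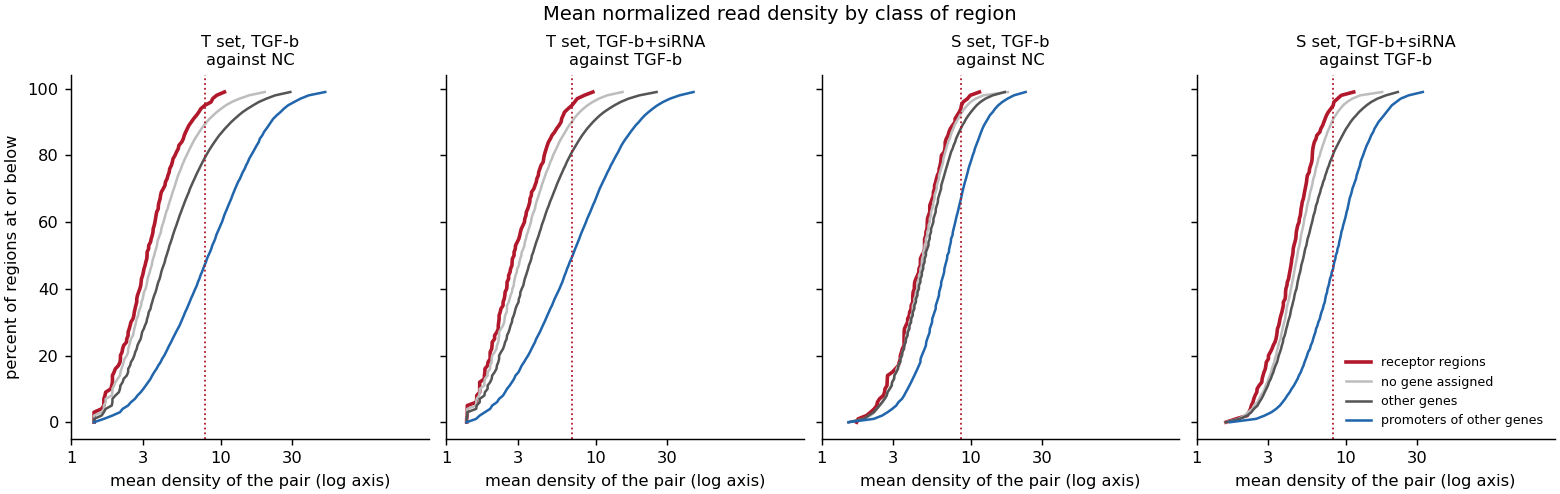
Share of regions at or below each mean density (horizontal log axis; percentiles 0 to 99) for receptor regions, regions with no gene assigned, regions of other genes and promoters of other genes; the dotted line is the 95th percentile of receptor regions. The receptor curve lies furthest to the left over most of its range in the 4 panels, with the curves closest in the S set for TGF-b against NC.

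Few receptor regions were called as a peak in both libraries of a comparison. These were 8 of 646, 10 of 752, 1 of 280 and 2 of 256, or 1.24% (0.629% to 2.42%), 1.33% (0.724% to 2.43%), 0.357% (0.0631% to 2.0%) and 0.781% (0.214% to 2.8%). All regions were called in both in 5.42%, 4.21%, 2.19% and 3.90% of cases, and promoters of other genes in 20.2%, 18.1%, 10.1% and 19.7%. The remaining members were called in 1 library only, so their folds start from a choice of the library with the peak. Members called only in NC of the T set had a median log2 ratio of -1.55 (95% rank interval -1.71 to -1.37, 466 regions), and those called only in TGF-b had 1.60 (1.17 to 2.16, 172 regions). All regions of these classes had medians of -1.27 and 1.41.

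The density ratio between libraries was off 0 in the T set for receptor regions and for all regions alike. For TGF-b against NC in the T set the median log2 ratio of members was -0.99 (-1.10 to -0.80), against -0.65 for all regions. For TGF-b+siRNA against TGF-b it was 1.37 (1.19 to 1.45), against 0.97. The S set medians were -0.22 (-0.37 to -0.0047) and -0.45 (-0.67 to -0.12), against -0.20 and -0.21. Without the authors' line the S set median for TGF-b against NC turned to 0.35, so its direction rests on the line, which the counts of members higher and lower in that table also use, and the T set median for TGF-b+siRNA against TGF-b was 0.91. With reads of 3 or fewer set to 3, an alternative added after the data were seen, the T set medians were -0.43 and 0.77. Regions with no gene assigned had medians of -0.80, 1.18, -0.26 and -0.35, and the promoters of other genes had medians of 0.10, 0.01, 0.34 and 0.07 in the same order. The authors' scaling centres the regions called in both libraries on 0, a class that holds few receptor regions. Relative to the median of all regions, the receptor medians were -0.33, 0.40, -0.03 and -0.23. The share of members called in each library moved with this: 72.1% of members in the first T set table were called only in NC, and 76.1% in the second only in TGF-b+siRNA, against 68.9% and 70.5% of all regions. What part the calls or the scaling had in the ratio was not tested.

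**Figure D3:**
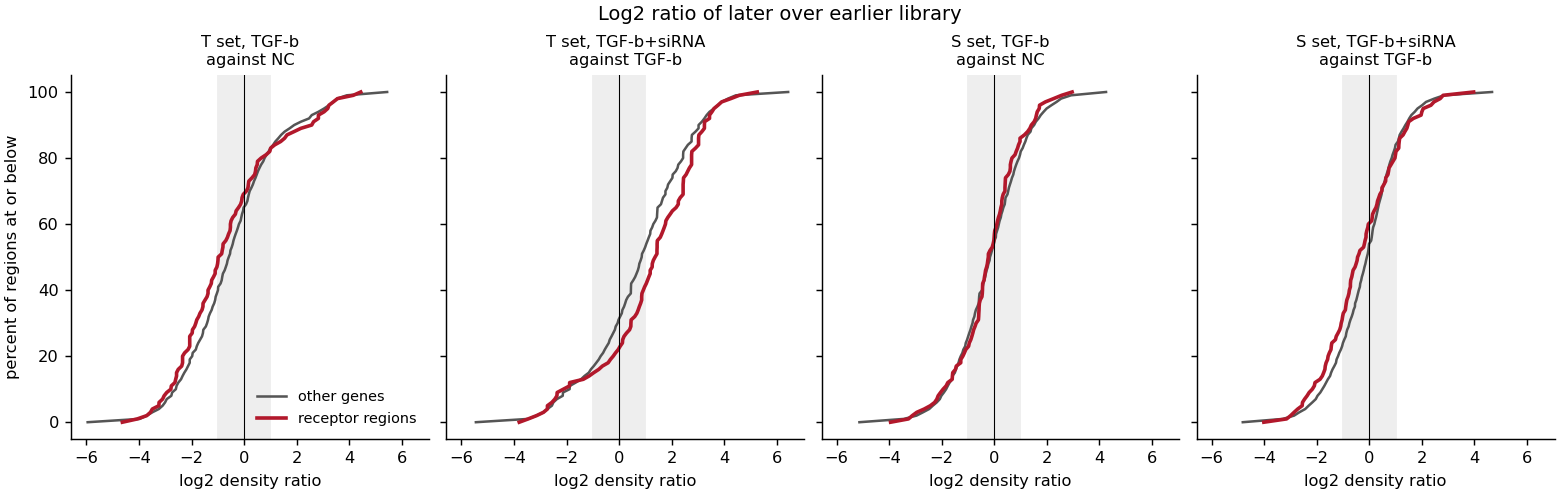
Share of regions at or below each log2 density ratio (later over earlier library, horizontal axis) for receptor regions and regions of other genes in the 4 tables; the grey band marks less than a 2-fold difference. In the T set the receptor curve lies on the far side of the other genes' curve from 0 at its median (-0.99 and 1.37), while in the S set the 2 curves nearly coincide for TGF-b against NC.

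Past 2-fold, members went in both directions in each table, as did the other regions. For TGF-b against NC in the T set, 115 members (17.8%, 15.04% to 20.9%) were higher by 2-fold or more and 314 (48.6%, 44.8% to 52.5%) were lower by 2-fold or more, against 17.3% and 42.1% of all regions. For TGF-b+siRNA against TGF-b, 443 (58.9%, 55.4% to 62.4%) were higher and 111 (14.8%, 12.4% to 17.5%) lower, against 49.7% and 16.2%. Of the first S set table, 38 members (13.6%, 10.1% to 18.1%) were higher and 64 (22.9%, 18.3% to 28.1%) lower for TGF-b against NC, against 17.4% and 26.7%. Without the authors' line, an alternative also added after the data were seen, this split turned to 86 higher and 44 lower, or 30.7% and 15.7%, against 32.7% and 15.3% of all regions, and in the other 3 tables the larger count stayed on its side. For TGF-b+siRNA against TGF-b in the S set, 47 (18.4%, 14.1% to 23.6%) were higher and 84 (32.8%, 27.4% to 38.8%) lower, against 15.1% and 27.8%. The background lay inside the members' interval in all but 2 of these 8 shares, and the exceptions were the lower share in the first T set table and the higher share in the second. With reads of 3 or fewer set to 3, the share of members past 2-fold in the first T set table went from 66.4% to 41.5%. The intervals treat regions as separate draws, although neighbouring windows share reads. Centring on the median of all regions moves the split past 2-fold toward even by construction. For members, 26.8% of those past 2-fold were higher in the first T set table and 43.2% after centring, 80.0% and 62.2% in the second, 37.2% and 48.6% in the first S set table and 35.9% and 45.6% in the second. The same shares over all regions were 29.2% and 49.6%, 75.4% and 50.3%, 39.5% and 50.1%, and 35.3% and 47.3%.

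Most of these folds rested on near-empty libraries. Of the members past 2-fold, 83.9%, 83.6%, 64.7% and 70.2% had 3 reads or fewer in 1 of the libraries, against 74.0%, 76.8%, 52.5% and 57.7% of all regions past 2-fold. The counting interval of the log2 ratio left out 0 for 307 members (47.5%), 413 (54.9%), 73 (26.1%) and 90 (35.2%), against 45.9%, 50.3%, 30.7% and 32% of all regions. Such an interval concerns the rescaled ratio of 1 region, with no allowance for the number of regions. Most members were called in 1 library only, so the direction is partly chosen and counting noise is not put aside. The members' share was above the background by more than its own interval (51.4% to 58.4%) only in the T set for TGF-b+siRNA against TGF-b.

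The spread of the log2 ratio over members was smaller with 30 reads or more than with 0 to 9 in each of the 4 tables, but it did not fall from bin to bin. The SD over members was 1.90 in both T set tables and 1.26 and 1.43 in the S set, against 1.78, 1.84, 1.31 and 1.29 over all regions. With reads of 3 or fewer set to 3 the members' SD was 1.05, 0.99, 0.96 and 1.09. The range from the 5th to the 95th percentile ran from -3.24 to 3.19, -2.73 to 3.61, -2.43 to 1.71 and -2.56 to 2.05 for members, and of the regions of other genes 8.06%, 8.24%, 11.6% and 6.93% fell outside these bounds. In the T set for TGF-b against NC the members' SD was 2.08 with 0 to 9 reads in the 2 libraries together (255 members) and 1.18 with 30 reads or more (33 members), and for other genes 2.07 and 1.26; between these ends the members' SD was 1.76 with 10 to 14 reads and 1.99 with 15 to 19. In the second T set table it was 1.91 with 0 to 9 reads, 1.94 with 10 to 14, 2.03 with 15 to 19 and 1.42 with 30 or more (16 members). In the S set for TGF-b against NC it went from 1.93 (35 members) to 0.77 with 20 to 29 reads (78 members) and 0.95 with 30 or more (24 members), and for other genes from 1.90 to 1.06 and 0.87. The widest gap between members and other genes within a bin was this one of 0.77 against 1.06, followed by 1.99 against 1.71 with 15 to 19 reads in the T set for TGF-b against NC (87 members). The members differed in where they lay along the depth axis: 39.5% and 53.7% of them in the T set tables had under 10 reads in all, against 28.0% and 38.9% of all regions, and 12.5% and 16.0% in the S set, against 10.1% and 9.49%.

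**Figure D4:**
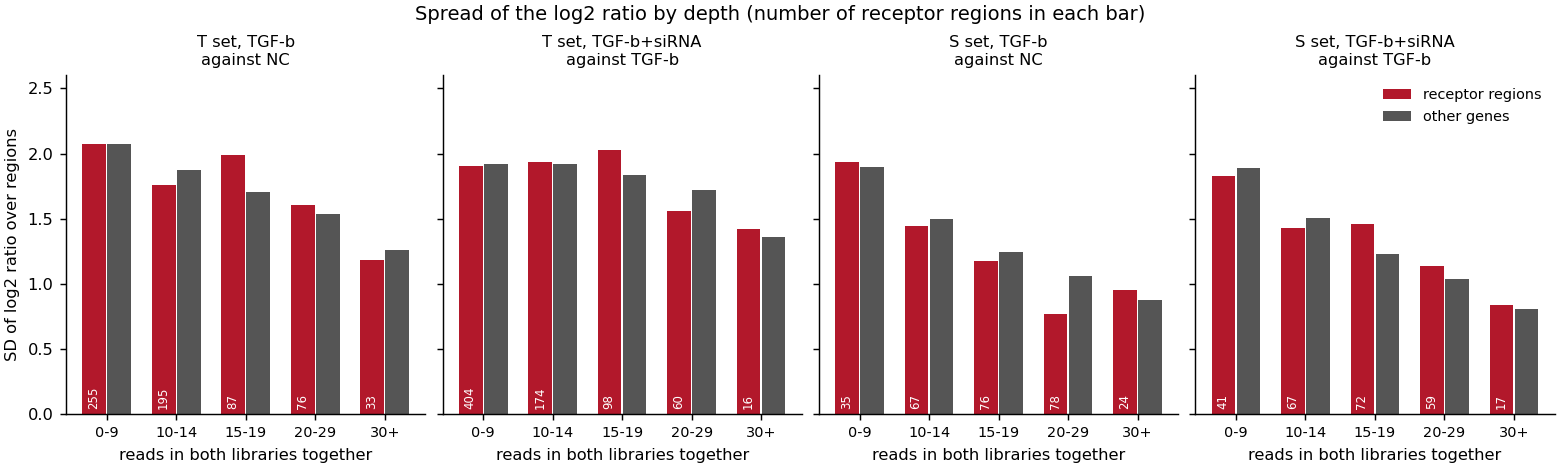
SD of the log2 ratio over regions (vertical axis) by reads in the 2 libraries together (horizontal axis) for receptor regions and regions of other genes; numbers in the bars count the receptor regions. Within each panel both bars are lower at 30 reads or more than at 0 to 9, from 1.93 to 0.95 for receptor regions in the S set for TGF-b against NC.

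Named members show the ends of this range. The highest mean density in the T set was at Or51f5, an odorant receptor gene on chromosome 7, in a region 1174 bp upstream of its start (chr7:102419103-102419406). Its NC library had 44 reads, its TGF-b library 30 and its TGF-b+siRNA library 10, and its log2 ratio for TGF-b against NC was -0.54 (-1.22 to 0.11), an interval that holds 0. Or6b2, an odorant receptor gene on chromosome 1, followed with a promoter region 185 bp upstream (chr1:92412924-92413117) with 53, 10 and 5 reads in the same libraries, a log2 ratio of -2.26 (-3.33 to -1.41). A neighbouring Or6b2 region, 453 bp into the gene, had 53 and 9 reads, and the windows of the 2 overlap, so they are not separate observations. Or2h2 had 36, 17 and 30 reads in NC, TGF-b and TGF-b+siRNA (chr17:37394290-37394617), so TGF-b had the fewest reads before scaling.

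In the T set, the largest differences downward with TGF-b and upward with TGF-b+siRNA, among members with at least 20 reads, had no reads in 1 library. Or2t46 had 27 reads in NC and 0 in TGF-b (chr11:58467739-58467814), at least 6.20-fold lower with the empty library set to the floor of 3 reads. Or4c104 had 25 and 0 reads, and Or4c117 24 and 0, at least 5.74-fold and 5.51-fold lower. In the other direction, Or5ac24 had 0 reads in TGF-b and 27 in TGF-b+siRNA (chr16:59163203-59163288), at least 9.56-fold higher, and Or10am5 had 0 and 22, at least 7.84-fold higher. These 5 are odorant receptor genes. Vmn1r69, a vomeronasal receptor gene, had 0 and 20 reads and was at least 7.16-fold higher. Among members higher with TGF-b in the T set, a region downstream of Or13e8 (chr4:43693786-43694136) had 8, 25 and 1 reads in NC, TGF-b and TGF-b+siRNA. Its log2 ratio was 1.61 (0.60 to 2.84) for TGF-b against NC and -3.25 (-6.73 to -1.65) for TGF-b+siRNA against TGF-b, and the TGF-b library is shared by these 2 values. Its neighbouring region had 7 and 28 reads in NC and TGF-b, and Or5p57, another odorant receptor gene, had 4 and 16. Or2z2 had 11 reads in TGF-b and 32 in TGF-b+siRNA, a log2 ratio of 1.93 (1.04 to 2.98), and Vmn1r4 had 20 and 25 at a 5′ UTR region. Lower with TGF-b+siRNA were Or52n3, with 12, 16 and 4 reads in the 3 libraries, and a Tas1r2 region 16531 bp from the start with 10, 26 and 5. These were named for a fall from TGF-b.

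In the S set the highest region of all members was assigned to Tas1r2, which encodes a subunit of the sweet receptor. It lay 6604 bp from the start (chr4:139387288-139387640, annotated 3′ UTR) and had 17, 50 and 20 reads in NC, TGF-b and TGF-b+siRNA. A neighbouring region assigned to Tas1r2, 6113 bp from the start, was annotated to an intron of another host gene and had 16 and 46 reads in NC and TGF-b. The region 6604 bp from the start had a log2 ratio of 0.97 (0.24 to 1.81) for TGF-b against NC. For TGF-b+siRNA against TGF-b its log2 ratio was -1.25 (-2.03 to -0.55). Or10p1, an odorant receptor gene, had 5, 31 and 15 reads in an exon (chr10:129443565-129443796), a log2 ratio of 1.85 (0.75 to 3.38) and then -0.95 (-1.87 to -0.12). Or1ab2, an odorant receptor gene on chromosome 8, had 3, 23 and 6 reads 950 bp upstream of its start, with a log2 ratio of 2.01 (0.71 to 4.01) for the first comparison. TGF-b had the most reads before scaling in the first Tas1r2 region and in those of Or10p1 and Or1ab2. These 3 regions were named for the size of their value or difference. Or52d1, with 25 reads in NC and 8 in TGF-b, and Or4k6, with 20 and 6, went the other way at log2 ratios of -2.09 (-3.33 to -1.08) and -2.16 (-3.58 to -1.03). Or3a1c had 2 and 19 reads in TGF-b and TGF-b+siRNA at a 5′ UTR region, a log2 ratio of 2.86 (1.42 to 5.32), with a neighbouring window at 3 and 19 reads. Or1af1 had 18, 31 and 13 reads in the 3 libraries, with a log2 ratio of 0.21 (-0.59 to 1.07) for TGF-b against NC, and Or6a2 had 20 in NC and 10 in TGF-b. Among the members lower with TGF-b+siRNA in the S set, Or4b1d had 1, 18 and 2 reads, Or2m13 had 8, 24 and 3, and a region assigned to Or2p2 but hosted by another gene had 11, 21 and 3. The last 3 were named for a fall from TGF-b, so a high TGF-b value there is not a finding. Vmn1r71 went the other way, with 7 reads in TGF-b and 20 in TGF-b+siRNA.

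**Figure D5:**
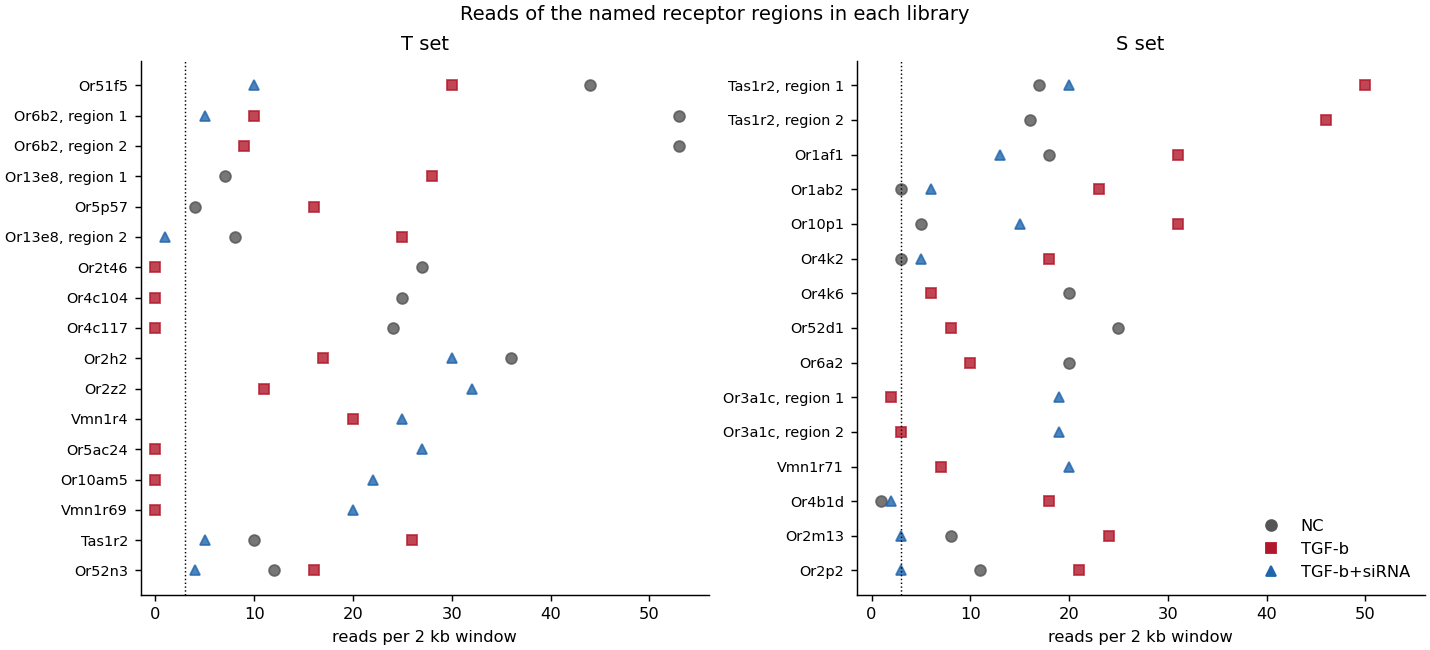
Reads per 2 kb window (horizontal axis) of the named receptor regions in each library of the T set and the S set; a missing symbol means the region was not in the table holding that library. Counts run from 0 to 53 reads, and the dotted line marks the floor of 3 reads.

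A list of 12 receptor genes known outside sensory tissue was looked up among the members. Of these, Tas1r2, Tas1r3, Or55b4, Or51e1 and Or51e2 had a region in the first T set table, Tas1r1 joined in the second, where Or55b4 had none, and only Tas1r2 and Or51e1 had a region in the S set. Each T set table thus held 5 of the 12, beside the 30.4% and 34.8% of all receptor genes given above. Or51e1 had 8, 5 and 14 reads in NC, TGF-b and TGF-b+siRNA of the T set in a region 658 bp into the gene (chr7:102351982-102352179), and 13 and 22 in TGF-b and TGF-b+siRNA of the S set in a region that overlaps it. The log2 ratios for TGF-b+siRNA against TGF-b were 1.78 (0.53 to 3.36) in the T set and 0.78 (-0.14 to 1.80) in the S set. Or51e2 had 1, 4 and 0 reads in a region of the T set, and a second region had 3 in TGF-b and 7 in TGF-b+siRNA. Tas1r1, a subunit of the umami receptor, had 19 and 5 reads in TGF-b and TGF-b+siRNA of the T set in 1 region, and 4 and 6 in the other. Or55b4 had 19 reads in NC and 0 in TGF-b of the T set, at least 4.38-fold lower. Tas1r3, which encodes the subunit shared by the sweet and umami receptors, had 0, 16 and 9 reads in an exonic region (chr4:155946472-155946572), a ratio of at least 4.88 for TGF-b over NC, while a second region 2615 bp upstream had 10, 8 and 5 reads.

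Members of the T set and the S set seldom coincided. For TGF-b against NC, 18 regions of each set overlapped by at least 1 bp, 2.79% of the T set members and 6.43% of the S set members, against 3.98% and 12.7% of all regions. For TGF-b+siRNA against TGF-b the number was 16, 2.13% and 6.25%, against 4.69% and 15.9%. Or6b3, an odorant receptor gene, had a region at its start in both sets, with 4 reads in NC and 14 in TGF-b of the T set and 13 and 30 in the S set. The log2 ratios were 1.72 (0.41 to 3.47) and 0.60 (-0.27 to 1.58). At Or8d6 the reads were 2 and 11 in the T set and 18 and 14 in the S set, log2 ratios of 2.16 (0.62 to 4.63) and -0.90 (-1.91 to 0.07). At both genes the T set interval left out 0 and the S set interval held it, and the difference between sets was not tested. At gene level, 209 of the 817 genes had a region in both sets, 13.9% of the 1502 receptor genes, against 53.1% of other protein-coding genes. Within a set, 194 T set members stood in both tables with the same borders, 30.03% and 25.8% of the members of each table, against 34.3% and 32.6% of all regions. In the S set 139 did, 49.6% and 54.3%, against 51.1% and 51.2%. Of these, 6 of the T set (3.09%) and 8 of the S set (5.76%) had over 10 reads in all 3 libraries, against 14.8% and 10.04% of all such regions. Their median reads in NC, TGF-b and TGF-b+siRNA were 3, 7 and 1 in the T set and 5, 12 and 4 in the S set, against 6, 9 and 4 and 5, 13 and 5 for all such regions. A region can stand in both tables with the same borders through a peak of the shared TGF-b library, and how many do was not counted. A high TGF-b value in these regions is therefore not a finding.

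Genes that act with the receptors, and other chemosensory receptors, were described in the same way. Of 14 olfactory transduction and trafficking genes, among them Omp, Gnal, Adcy3, Ano2 and the transcription factors Lhx2, Ldb1 and Ebf1, 12, 12, 9 and 9 had a region, with 78, 77, 25 and 24 regions in all. At least 2-fold higher were 14, 28, 7 and 1 of these regions and at least 2-fold lower 39, 14, 7 and 7, to be read against 17.3%, 49.7%, 17.4% and 15.1% of all regions higher and 42.1%, 16.2%, 26.7% and 27.8% lower. Ano2, a chloride channel gene, held 42, 30, 13 and 14 of them, and its highest region in the T set for TGF-b against NC had 72 and 28 reads. Of 5 taste transduction genes, 4, 4, 1 and 1 had a region, with 2 of 13, 6 of 13, 1 of 2 and 0 of 1 regions higher and 6, 2, 1 and 1 lower. Above the 95th percentile of the receptor regions lay 10 of 91, 15 of 90, 6 of 27 and 6 of 25 regions of the olfactory and taste transduction genes together. The formyl peptide and trace amine receptors, chemosensory families outside the rule, had 10, 8, 3 and 5 regions, of which 2, 2, 0 and 0 did. Of all regions of other genes, 20.7%, 19.03%, 11.7% and 19.6% lay above that level.

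The labelled cell type was looked at through regions assigned to its markers. Of 9 fibroblast markers, 8, 7, 2 and 2 had a region, with none at Tcf21 in any table and none at Col1a2, Col3a1, Dcn, Lum or Vim in the S set. Of 3 myofibroblast markers, 3, 3, 0 and 1 had a region. Markers of cells outside the label had regions too: 3, 3, 2 and 2 of 3 cardiomyocyte markers, 2 of 2 endothelial markers in each table, 1 of 2 immune markers (Ptprc, with none at Cd68), 7 of 9 olfactory sensory neuron markers in each table, 2, 3, 2 and 2 of 3 vomeronasal markers and 2, 3, 1 and 1 of 3 taste markers. These counts stand beside 74.2%, 74.95%, 44.1% and 48.2% of all other protein-coding genes with a region in the 4 tables. Of the 33 and 29 regions at fibroblast and myofibroblast markers in the T set, 8 and 8 lay above the 95th percentile of the receptor regions, and of the 2 and 5 in the S set 0 did. The 8 of 33 and 8 of 29 are 24.2% and 27.6% (12.8% to 41.0% and 14.7% to 45.7%), intervals that hold the background of 20.7% and 19.03% of other genes. A region marks reads near a gene and not its expression, so these lists do not test the identity of the cells.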

How the data were processed

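The labels describe 6 CUT&Tag libraries of primary cardiac fibroblasts, made with the Vazyme TD904 kit, 1 per treatment and set, although their library fields read transcriptomic and total RNA. The study's methods give Bowtie2 and GRCm39, while the submitters' processing notes list BWA 0.7.12 and mm10; region coordinates here follow the tables, on GRCm39. The values are a read density signal: the authors counted reads in 2 kb windows of merged peaks, added 1 read, and rescaled the signal by a line fitted against mean log2 density, which puts regions called in both libraries around 0. Each table was rescaled separately. The authors' own columns of fold changes, M and A values and p-values were not used.

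Members and lists were chosen with earlier results of these data known. From the deposited signal, reads were recovered by undoing that line (whole within 0.1 in 99.97% to 99.99% of regions), and the log2 ratio is the later library over the earlier. Shares carry Wilson 95% intervals, medians 95% rank intervals, and a region's log2 ratio an approximate interval from the Wilson interval of the later library's share of its reads; the last covers counting error only, and the others treat regions or genes as separate draws. A floor of 3 reads was used per library. Named members are, per table, the 3 regions with the highest mean density, the 3 largest rises and 3 largest falls with at least 20 reads in both libraries together, the gene with most regions per family, and a list of receptors known outside sensory tissue. The rule for sequences asked for region sequences; since the genome at hand was of another build, RefSeq promoters were printed, matched through GENCODE M21 identifiers. Gene lengths and gene totals also come from GENCODE M21. Python 3.11.15, pandas 2.3.3, numpy 2.4.6, scipy 1.17.1 and statsmodels 0.14.6 were used, and the read recovery was tested on simulated data. Alternatives covered the threshold, floor, scaling, minimum reads and choice of members; counting 1 region per locus, leaving out members hosted by another gene, taking the median after raising reads under the floor to 3, and counting members past 2-fold without the authors' line were added after seeing the data.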

Additional observations from a re-analysis of the deposited data

Results flagged for a closer look

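For TGF-b+siRNA against TGF-b the receptor regions had a median log2 ratio of 1.37 in the T set, and their S set median was -0.45. The medians have opposite signs, which is why they are listed here. The medians of all regions had the same pair of signs, at 0.97 and -0.21. The difference was not tested, there is 1 library per treatment in each set, the siRNA differs by label between the sets, and the tables were scaled separately.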

How the results depend on the processing

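Groups of 4 values give the T set before the S set, and TGF-b against NC before TGF-b+siRNA against TGF-b in each. Of the 100 values recomputed, 50 kept their direction and moved by less than the spread, 49 moved and 1 reversed. Without the authors' line the S set median for TGF-b against NC went from -0.22 to 0.35, and the T set median for TGF-b+siRNA against TGF-b from 1.37 to 0.91; the shares past 2-fold were 70.6%, 67.4% and 46.4% in the first 3 tables (added after seeing the data). The line itself sets these shifts. Restricting members to those inside the gene cluster left 377, 435, 147 and 117. Centring on the median of all regions gave T set medians of -0.33 and 0.40 and shares past 2-fold of 59.1% and 59.0%. With at least 10 reads, the T set median for TGF-b+siRNA against TGF-b was 1.16, the T set shares past 2-fold 59.3% and 66.1%, and the SD 1.76 (T set) and 1.13 (S set) for TGF-b against NC. Members called in both libraries had medians of -0.28, 0.64, -1.43 and -1.08, from 8, 10, 1 and 2 regions. With reads of 3 or fewer set to 3, the T set medians were -0.43 and 0.77 (added after seeing the data), the shares past 2-fold 41.5%, 50.3%, 28.9% and 43.0%, and the SD 1.05, 0.99, 0.96 and 1.09. The shares were 77.6%, 85.6%, 57.5% and 74.2% past 1.5-fold and 38.7%, 47.1%, 12.5% and 19.1% past 4-fold. The share at the floor was 41.0%, 46.3%, 10.7% and 13.7% at 1 read and 81.6%, 87.5%, 51.4% and 61.3% at 5 reads. The SD estimated from the interquartile range was 1.79 in the T set for TGF-b+siRNA against TGF-b and 1.06 in the S set for TGF-b against NC. Where no construction is named, the cause was not tested. No paired analysis was possible because each treatment has 1 library per set. Reads per window limit each fold: most members past 2-fold had a library at 3 reads or fewer.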
